A study of Arabidopsis thaliana with 6 samples.

Results

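The set described here is 10 genes of nitrate uptake, nitrate reduction and nitrogen assimilation in Arabidopsis thaliana, of 33557 genes in the table of the whole series. They were taken by locus identifier: the nitrate transporters NRT1.1 and NRT2.1, the nitrate reductases NIA1 and NIA2, the nitrite reductase NIR1, the cytosolic glutamine synthetases GLN1;1, GLN1;2 and GLN1;3, the NADH-dependent glutamate synthase GLT1 and the asparagine synthetase ASN2. All 10 were among the 23937 genes that the authors tested. RNA was sequenced from whole seedlings labelled 4 days old, with a light code of D for 4 days and FR, read here as far-red light, for 3 h. Both groups carry the fhy1-1 mutation. The first is the fhy1-1 mutant itself, called the mutant below, and the second is fhy1-1 with a GFP-FHY1 fusion driven by the constitutive 35S promoter, with 3 libraries of each, 6 in all. No wild type and no seedlings kept from far-red are among the samples, so a response to far-red and a standing difference between the lines cannot be told apart. The labels name a single transgenic line and do not say how many insertion events it represents.

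FHY1 carries the photoreceptor phytochrome A into the nucleus, where the photoreceptor acts on transcription under far-red light. Nitrate enters root cells through NRT1 and NRT2 carriers, is reduced to nitrite by nitrate reductase in the cytosol, and nitrite is reduced to ammonium by nitrite reductase in plastids. Glutamine synthetase joins ammonium to glutamate, glutamate synthase returns the amino group to 2-oxoglutarate, and asparagine synthetase moves nitrogen into asparagine, a transport form that is prominent in darkness. Light, nitrate and sugars are all known to act on transcripts of this pathway, nitrate reductase being a long-studied example of a phytochrome-responsive gene.

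The deposited table holds 1 value per gene and genotype, in FPKM (fragments scaled to transcript length and library size), with no value per library. No SD between replicates can therefore be given, and sequencing depth is unknown. Calls are those with a q-value below 0.05 in the authors' deposited table. As a check on the labels, FHY1 itself was compared first: it was listed at 19.0 FPKM in the mutant, and the transgenic seedlings, at 195.9 FPKM, had 10.3-fold more. Markers of root and of shoot were both present: 11 of 13 root markers and all 8 shoot markers had a mean of at least 1 FPKM, and none was listed at 0. Per the authors' deposited table, the root markers called lower were 5, those called higher 1 and those not called 7, where 12.9% of all tested genes were called lower and 9.92% higher. The 5 lower were PHT1;1, GL2, PIN2, CASP1 and IRT1, and the 1 higher was SHR. RHD6, COBL9, EXPA7, SCR, WOX5, PLT1 and PLT2 were not called. The summed level of the 13 root markers was 434.2 FPKM in the mutant and 374.3 FPKM in the GFP-FHY1 line. Within it the largest falls were those of CASP1 (203.5 to 183.7 FPKM), IRT1 (88.1 to 66.6 FPKM) and PHT1;1 (38.9 to 26.3 FPKM). The loci of GL2 and CASP1 overlap other genes. Of the root markers, only PHT1;1, GL2 and IRT1 remained called with a replicate spread of 10% added, as explained further on. By that rule 2.5% of all tested genes were called lower. Of the shoot markers, 1 was called lower, 2 higher and 5 not at all, with sums of 1177 and 1111 FPKM. The 1 lower was PDF1, from 737.5 to 644.9 FPKM. The 2 higher were EPF2, from 5.35 to 9.21 FPKM, and LTP1, from 377.0 to 399.8 FPKM. The part of these organ markers in the results below was not tested, and in whole seedlings fewer cells of a type and less RNA per cell cannot be told apart.

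Most of the 10 transcripts were somewhat lower in the GFP-FHY1 line, and the main cytosolic glutamine synthetase was the clearest case. Calls in the authors' deposited table covered 9 of the 10, against 22.8% of all tested genes. The 7 called lower were NRT1.1, NRT2.1, NIR1, GLN1;1, GLN1;2, GLN1;3 and GLT1, against 12.9% of tested genes called lower. The 2 called higher were NIA1 and ASN2, against 9.92% of tested genes. NIA2 was not called. The median log2 fold change of the 10 genes was -0.20, where that of all tested genes was -0.05, and no gene of the 10 changed by 2-fold, where 2.6% of tested genes were called and did so. The genes called higher encode a nitrate reductase and an asparagine synthetase. The genes called lower cover uptake, nitrite reduction and the glutamine and glutamate synthesis that follows. Of these 7, 6 had a mean of at least 100 FPKM, and 57.7% of tested genes at that level were called lower. NRT2.1 was the other, at a mean of 0.855 FPKM.

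**Figure D1:**
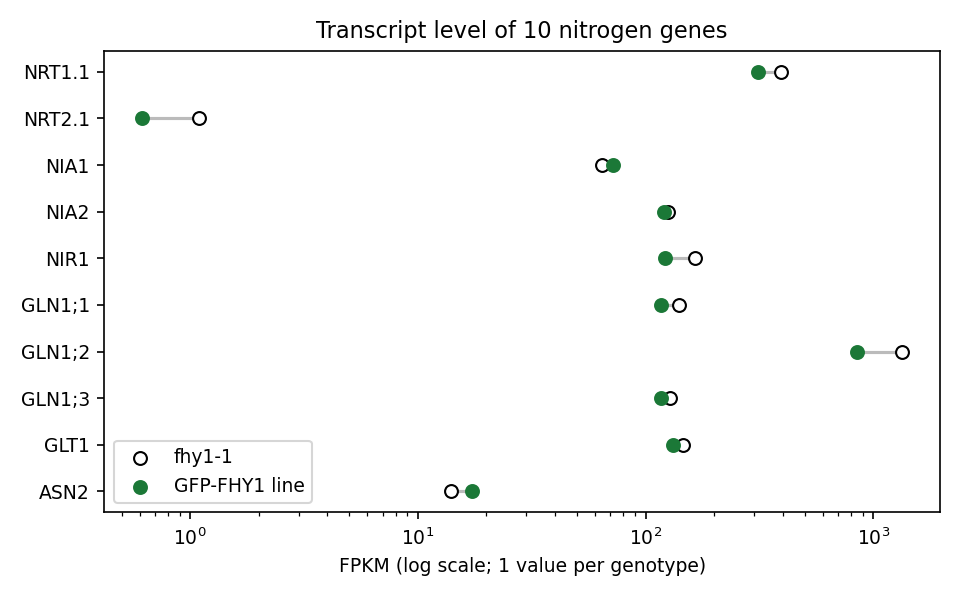
Transcript level in FPKM (log scale) of the 10 genes, ordered by their place in the pathway; open circles are fhy1-1 and filled circles the GFP-FHY1 line, 1 value per genotype with no replicate spread. GLN1;2 stands highest, at 1334 and 852 FPKM, and NRT2.1 lowest, at 1.09 and 0.617 FPKM.

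NRT1.1 (AT1G12110, chr1:4105233-4109545, TAIR10) encodes a nitrate transporter of dual affinity that also serves as a nitrate sensor. It was the second most abundant transcript of the set, at 391.9 FPKM in the mutant and 313.0 FPKM in the GFP-FHY1 line. It was 1.25-fold lower in that line (log2 fold change -0.32, a q of 0 in the authors' deposited table). Its level ranked 277 among the tested genes, high in both genotypes.

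NRT2.1 (AT1G08090, chr1:2524076-2526164) is the main high-affinity nitrate transporter of roots, known to be induced by nitrate and repressed by reduced nitrogen. It was barely expressed here, at 1.09 FPKM in the mutant and 0.617 FPKM in the GFP-FHY1 line. That is 1.77-fold lower (log2 fold change -0.82), the widest ratio in the set but the least secure: q was 0.0459 in the authors' deposited table, just inside the threshold, and the adjusted p was 0.0701 when all genes were centred on the median gene and retested with the normal test. The neighbouring copy NRT2.2 (AT1G08100, chr1:2527170-2529120) was listed at 0.0162 and 0.00146 FPKM and was not tested. The coding sequences of the pair were 89.4% identical over 1569 aligned bases, with an unbroken run of 170 identical bases, so reads in such stretches could not be assigned to either copy. The stretch below is from that shared run, shown because it marks where the pair cannot be separated; it lies at chr1:2524520-2524609 on the plus strand in NRT2.1 and at chr1:2528614-2528703 on the minus strand in NRT2.2 (RefSeq, TAIR10.1), all in lower case since no base differs.

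NRT2.1 and NRT2.2: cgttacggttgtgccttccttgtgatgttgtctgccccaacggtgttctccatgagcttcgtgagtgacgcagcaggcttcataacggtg

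The rest of the NRT2 family was also low except for NRT2.7, a vacuolar carrier known from seeds, at 7.90 and 7.35 FPKM (q = 0.581 in the authors' deposited table). NRT2.7 overlaps another locus in the table. NRT2.4, NRT2.5 and NRT2.6 were below 1 FPKM in both genotypes and were not called, and NRT2.3 was listed at 0 in both. NRT3.1, the small partner protein that NRT2.1 needs at the membrane, was well expressed and fell 1.38-fold, from 52.7 to 38.2 FPKM (q = 5.64e-08 in the authors' deposited table).

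Neither nitrate reductase was called lower. NIA1 (AT1G77760, chr1:29235803-29239445) rose 1.112-fold in the GFP-FHY1 line, from 64.6 to 71.9 FPKM (log2 fold change 0.15, q = 1.16e-07 in the authors' deposited table). NIA2 (AT1G37130, chr1:14158527-14161938), which is known to supply most nitrate reductase activity in seedlings, stood at 125.0 and 121.1 FPKM. Its log2 fold change was -0.05, with a 95% interval of -0.08 to -0.01 from the error of the authors' test, and a q of 0.0604 in the authors' deposited table. It became 0.00202 after centring on the median gene, and NIA2 was called lower when genes under 1 FPKM in both genotypes were left out before adjustment. The summed level of the pair was 189.7 FPKM in the mutant and 192.9 FPKM in the GFP-FHY1 line, and the ratio of NIA2 to NIA1 was 1.93 and 1.68.

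The coding sequences of the nitrate reductases are 2754 bases each, 72.9% identical, and share no identical run longer than 20 bases. The most alike stretch of 90 bases within a single exon of each is shown to let the copies be compared, with the 12 positions that differ in capitals; it lies at chr1:29236896-29236985 on the minus strand in NIA1 and chr1:14160663-14160752 on the plus strand in NIA2 (RefSeq, TAIR10.1).

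NIA1: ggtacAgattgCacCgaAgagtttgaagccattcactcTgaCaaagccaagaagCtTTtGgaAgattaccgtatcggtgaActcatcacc
NIA2: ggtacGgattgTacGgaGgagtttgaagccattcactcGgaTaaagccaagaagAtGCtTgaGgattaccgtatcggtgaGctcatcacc

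NIR1 (AT2G15620, chr2:6810476-6812939), the sole nitrite reductase of the set, moved the other way. It fell from 165.2 FPKM in the mutant to 122.3 FPKM in the GFP-FHY1 line, 1.35-fold lower (log2 fold change -0.43, a q of 0 in the authors' deposited table). Nitrite reductase takes its electrons from ferredoxin and carries sirohaem, and genes that supply both are described further on.

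Cytosolic glutamine synthetase carried the largest change in FPKM. GLN1;2 (AT1G66200, chr1:24655210-24657683) ranked 47 in level among all tested genes. Its level was 1334 FPKM in the mutant and 852 FPKM with the transgene, a 1.57-fold decrease (log2 fold change -0.65, a q of 0 in the authors' deposited table). GLN1;2 is known as a low-affinity isoform that is raised by ammonium. GLN1;1 (AT5G37600, chr5:14933336-14935841), a high-affinity isoform, fell 1.196-fold, from 140.2 to 117.3 FPKM, also with a q of 0 in the authors' deposited table. GLN1;3 (AT3G17820, chr3:6097414-6099595), a further low-affinity isoform, fell 1.099-fold, from 128.2 to 116.6 FPKM (q = 1.59e-04 in the authors' deposited table).

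GLN1;2 made up 82.9% of the summed level of the 5 GLN1 genes in the mutant and 78.0% in the GFP-FHY1 line, while the sum went from 1609 to 1092 FPKM. GLN1;4 and GLN1;5 were low, at 2.05 and 2.04 FPKM and at 4.91 and 3.78 FPKM, and neither was called. GLN2, the plastid isoform of leaves, rose 1.106-fold, from 233.9 to 258.7 FPKM (q = 1.07e-06 in the authors' deposited table). The ratio of GLN1;2 to GLN2 went from 5.70 to 3.29.

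The GLN1 copies are alike enough that some reads could fit more than one. GLN1;1 and GLN1;2 were 87.5% identical over 1071 aligned coding bases, with a longest identical run of 44 bases. GLN1;3 was 79.3% identical to GLN1;1 and 78.7% to GLN1;2, with longest runs of 33 and 32 bases. The stretches below are the most alike 90 bases of the 3 copies within a single exon, with the 15 positions at which any copy differs in capitals. They lie at chr5:14933830-14933919 on the minus strand in GLN1;1, chr1:24655761-24655850 on the minus strand in GLN1;2 and chr3:6099166-6099255 on the plus strand in GLN1;3 (RefSeq, TAIR10.1). How reads that fit several copies were shared out is not given in the labels, so the separate values of the copies carry that uncertainty.

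GLN1;1: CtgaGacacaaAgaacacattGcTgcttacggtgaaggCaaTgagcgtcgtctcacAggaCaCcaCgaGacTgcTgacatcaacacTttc
GLN1;2: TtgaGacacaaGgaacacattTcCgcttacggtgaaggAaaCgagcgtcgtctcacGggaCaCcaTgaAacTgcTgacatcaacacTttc
GLN1;3: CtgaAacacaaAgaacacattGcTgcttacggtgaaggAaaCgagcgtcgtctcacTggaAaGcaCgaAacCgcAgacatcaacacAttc

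Glutamate synthase isoforms moved in opposite directions around a nearly level total. GLT1 (AT5G53460, chr5:21700202-21710066), which uses NADH and is known mainly from non-green tissue, fell 1.109-fold, from 146.3 to 131.9 FPKM (log2 fold change -0.15, a q of 0 in the authors' deposited table). GLU1, the ferredoxin-dependent isoform of leaves, rose 1.78-fold, from 28.9 to 51.6 FPKM (a q of 0 in the authors' deposited table). GLU2, the second ferredoxin-dependent isoform, fell 1.15-fold, from 70.4 to 61.1 FPKM, again with a q of 0 in the authors' deposited table. The sum of the 3 genes was 245.5 FPKM in the mutant and 244.6 FPKM in the GFP-FHY1 line, and the ratio of GLT1 to GLU1 went from 5.06 to 2.55.

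ASN2 (AT5G65010, chr5:25969189-25972575) rose 1.24-fold, from 14.0 FPKM in the mutant to 17.4 FPKM in the GFP-FHY1 line (log2 fold change 0.31, q = 1.00e-04 in the authors' deposited table). ASN1, the isoform known for its rise in darkness and sugar starvation, stood at nearly the same level in the mutant, 14.1 FPKM, and rose 1.63-fold to 22.9 FPKM (a q of 0 in the authors' deposited table). ASN3 was not called, at 10.7 and 9.57 FPKM. The coding sequences of ASN2 and ASN3 were 86.7% identical with a longest run of 32 bases, and those of ASN1 and ASN2 70.8% identical.

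**Figure D2:**
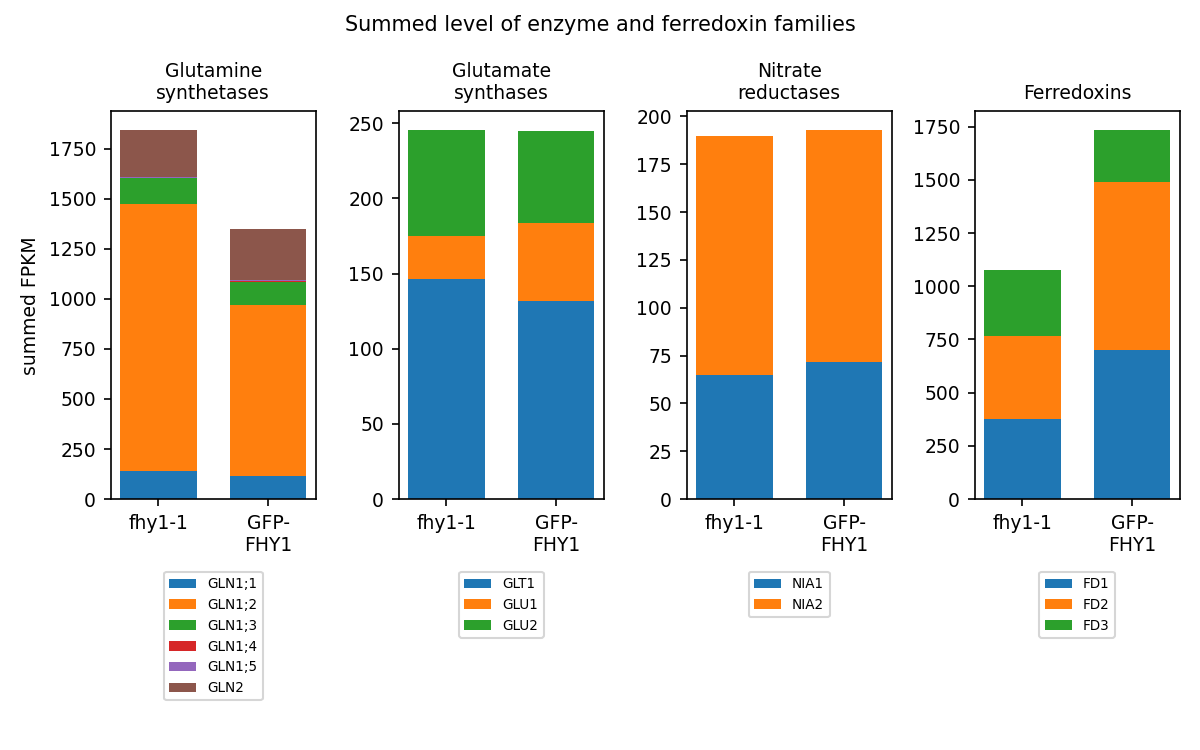
Summed FPKM of 4 families in fhy1-1 and the GFP-FHY1 line, each bar stacked by gene and starting at 0, with a separate axis per family. The glutamine synthetase sum with GLN2 went from 1843 to 1350.2 FPKM and the ferredoxin sum from 1079 to 1734.5 FPKM, while the glutamate synthase sums were 245.5 and 244.6 FPKM and those of nitrate reductase 189.7 and 192.9 FPKM.

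The number of genes called lower needs to be read against their high levels. With 1346 genes at a mean of at least 100 FPKM, the authors' deposited table called 57.7% lower and 21.1% higher, and the median log2 fold change of these genes was -0.13. Of the 10 nitrogen genes, 7 reached that mean, and 6 of them were called lower. Among such abundant genes a lower call was the common outcome. By size of change, GLN1;2 was at the low end, since 1.78% of the 1346 genes had a log2 fold change as low or lower. For NIR1 that share was 5.35%, for NRT1.1 10.6% and for GLN1;1 19.6%. GLT1 and GLN1;3 lay near the middle, at 44.1% and 48.2%, and NIA2 at 63.5%.

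**Figure D3:**
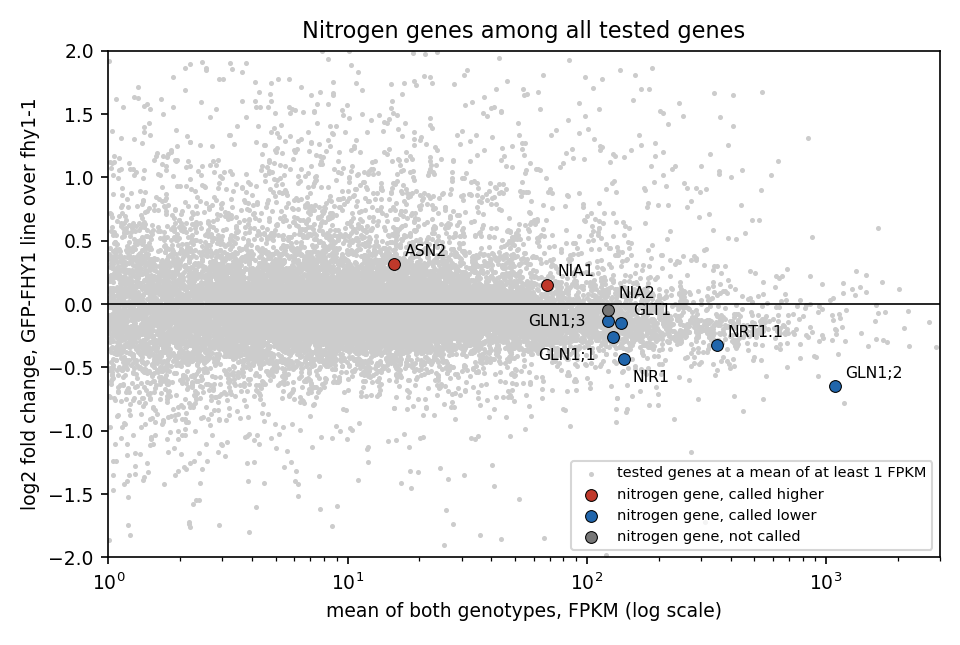
Log2 fold change (GFP-FHY1 line over fhy1-1) against the mean FPKM of both genotypes (log scale) for tested genes at a mean of at least 1 FPKM and a change within 4-fold; the nitrogen genes are coloured by their call, and NRT2.1, whose mean is under 1 FPKM, lies left of the axis and is not drawn. GLN1;2 lies at the lower edge of the cloud at its level, while GLT1, GLN1;3 and NIA2 lie inside it.

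The errors behind these calls were very small. Dividing each fold change by its statistic in the authors' deposited table gave an error of 0.011 (log2) for GLN1;2 and 0.32 for NRT2.1, the extremes of the set. A replicate spread of 10% (coefficient of variation) was then added to that error and every tested gene was retested with the normal test. GLN1;2 remained called lower, with an adjusted p of 1.93e-06. NIR1 did so too, with an adjusted p of 0.00589, and nothing in the set was called higher. Of all tested genes, 2.5% were lower and 4.98% higher by this rule. Among those at a mean of at least 100 FPKM, where GLN1;2 and NIR1 lie, 7.73% were lower and 10.4% higher. NRT1.1 then had an adjusted p of 0.0747, and with a spread of 20% nothing in the set was called, GLN1;2 having an adjusted p of 0.16, where 0.389% of all tested genes were lower and 2.41% higher.

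**Figure D4:**
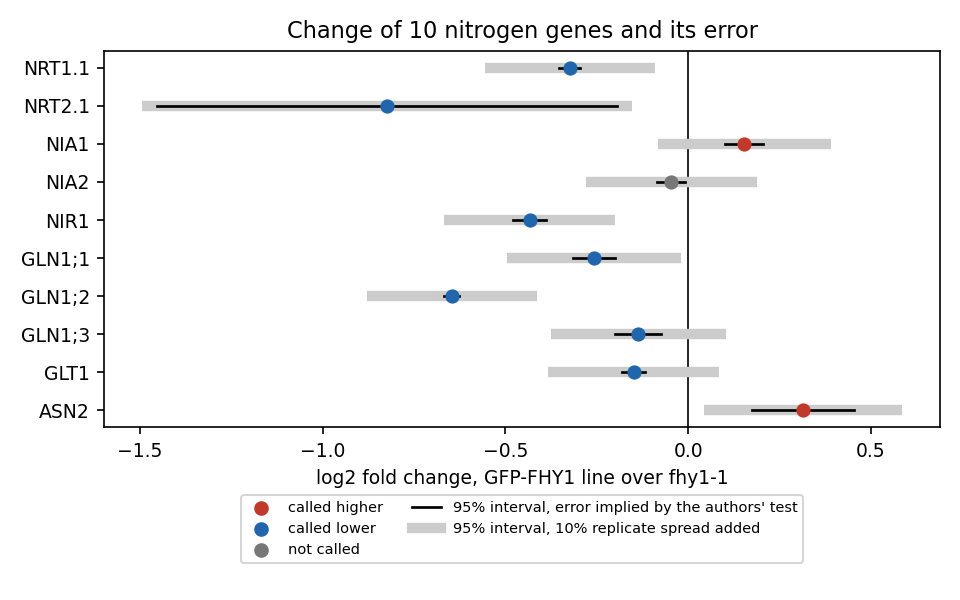
Log2 fold change of the 10 genes (points, coloured by call) with the 95% interval from the error of the authors' test (black lines) and with a replicate spread of 10% added (grey bars). With the added spread the intervals of NIA1, NIA2, GLN1;3 and GLT1 include 0, and those of GLN1;2 and NIR1 lie farthest from it relative to their width.

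The wider pathway was described with 5 further lists of 82 genes, of which 79 were tested. Calls in the authors' deposited table went up for 13 and down for 24 of them, and the median log2 fold change was -0.12, where 9.92% of all tested genes were called higher and 12.9% lower. The same shares are the background of each list that follows, though calls were more frequent among abundant genes. Of the 79, 71 had a mean of at least 1 FPKM and 13 of at least 100 FPKM. At the latter level 57.7% of tested genes were called lower and 21.1% higher. None of these lists was tested as a set. With a replicate spread of 10% added, 6 of the 79 were called higher and 9 lower, where 4.98% and 2.5% of all tested genes were. At a mean of at least 100 FPKM those shares were 10.4% and 7.73%. The 6 were AMT1;2, GLU1, ASN1, BT2, FD1 and FD2. The 9 were NRT3.1, SLAH3, AMT1;3, ASP2, UPM1, RFNR1, RFNR2, FD3 and G6PD2. The other calls of these lists did not remain.

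Among the 18 other nitrate transporters, 15 were tested, 4 were called higher and 2 lower, with a median log2 fold change of 0.02. Besides NRT3.1, the anion channel gene SLAH3 was lower, 1.31-fold (28.6 to 21.8 FPKM, q = 1.89e-12 in the authors' deposited table). NRT1.7, which loads nitrate into the phloem of older leaves, rose 1.25-fold, from 5.78 to 7.24 FPKM (q = 0.00973 in the authors' deposited table). NRT1.4, known from leaf petioles, rose 1.21-fold, from 106.0 to 128.2 FPKM, but its locus overlaps another gene. Of the 6 ammonium transporters, 1 was called higher and 2 lower, with a median log2 fold change of -0.43, or -0.11 over the 4 with a mean of at least 1 FPKM. AMT1;2 rose 2.94-fold, from 0.583 to 1.71 FPKM (q = 4.74e-06 in the authors' deposited table). It stayed called with a replicate spread of 20% added, as did GLU1, FD1 and FD2 among the 79 genes. AMT1;3, a major ammonium carrier of roots, fell 1.45-fold, from 41.7 to 28.7 FPKM, and AMT2;1 fell 1.25-fold, from 11.0 to 8.81 FPKM.

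Of 18 other assimilation enzymes, 3 were called higher and 8 lower, with a median log2 fold change of -0.18. The increases were GLN2, GLU1 and ASN1, described above. The cytosolic aspartate aminotransferase gene ASP2 fell 1.36-fold, from 158.1 to 116.5 FPKM, and GDH1, a mitochondrial glutamate dehydrogenase subunit, fell 1.27-fold, from 29.7 to 23.4 FPKM (q = 4.23e-07 in the authors' deposited table). ASP1, ASP3 and ASP5, GDH2, GLU2 and the PII protein gene GLB1 were also called lower, by smaller ratios.

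Of 21 nitrate signalling genes, the authors' deposited table has 3 higher, 4 lower and 14 not called, the median log2 fold change being -0.07. BT2, a BTB and TAZ domain protein known to respond to nitrogen, sugar and light, rose 1.63-fold, from 21.8 to 35.5 FPKM. NLP7, a nitrate sensor and transcription factor, rose 1.17-fold, from 11.9 to 13.9 FPKM (q = 0.00137 in the authors' deposited table). Its relative NLP6 rose 1.23-fold, and the calcium sensor genes CBL1 and CBL9 fell 1.24-fold and 1.22-fold. The nitrate-induced repressors LBD37, LBD38 and LBD39 were not called, with LBD37 at 74.1 and 70.8 FPKM, nor was CIPK23, a kinase that acts on NRT1.1, at 58.1 and 55.9 FPKM.

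A list of 19 genes covers cofactor and electron supply to nitrate and nitrite reductase. The authors' deposited table has 2 of them higher, 8 lower and 9 not called (median log2 fold change -0.16). UPM1, the methyltransferase that opens sirohaem synthesis, fell 1.58-fold, from 126.3 to 79.8 FPKM, next to NIR1. RFNR1, a ferredoxin-NADP reductase of root plastids, fell 1.53-fold, from 79.8 to 52.3 FPKM. Among ferredoxins, FD1 and FD2 of leaf chloroplasts rose 1.87-fold, from 374.4 to 699.9 FPKM, and 2.02-fold, from 390.0 to 789.4 FPKM. The following were named after their values were seen: the second root reductase RFNR2 fell 1.41-fold, the root ferredoxin FD3 1.28-fold, from 314.0 to 245.2 FPKM, and the plastid glucose-6-phosphate dehydrogenase genes G6PD2 and G6PD3 1.37-fold and 1.28-fold. The locus of G6PD3 overlaps another gene. Not in this list are the plastid gene G6PD1 and the leaf reductase genes LFNR1 and LFNR2. These rose 2.09-fold, 1.42-fold and 1.84-fold and are given in the last section. FD3 made up 29.1% of the summed level of FD1, FD2 and FD3 in the mutant and 14.1% in the GFP-FHY1 line. With a replicate spread of 10% added, UPM1, RFNR1, RFNR2, FD3 and G6PD2 remained called lower and FD1 and FD2 higher. CNX2 and CNX3, which begin the synthesis of the molybdenum cofactor of nitrate reductase, were not called, and CNX1, which completes it, fell 1.114-fold.

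**Figure D5:**
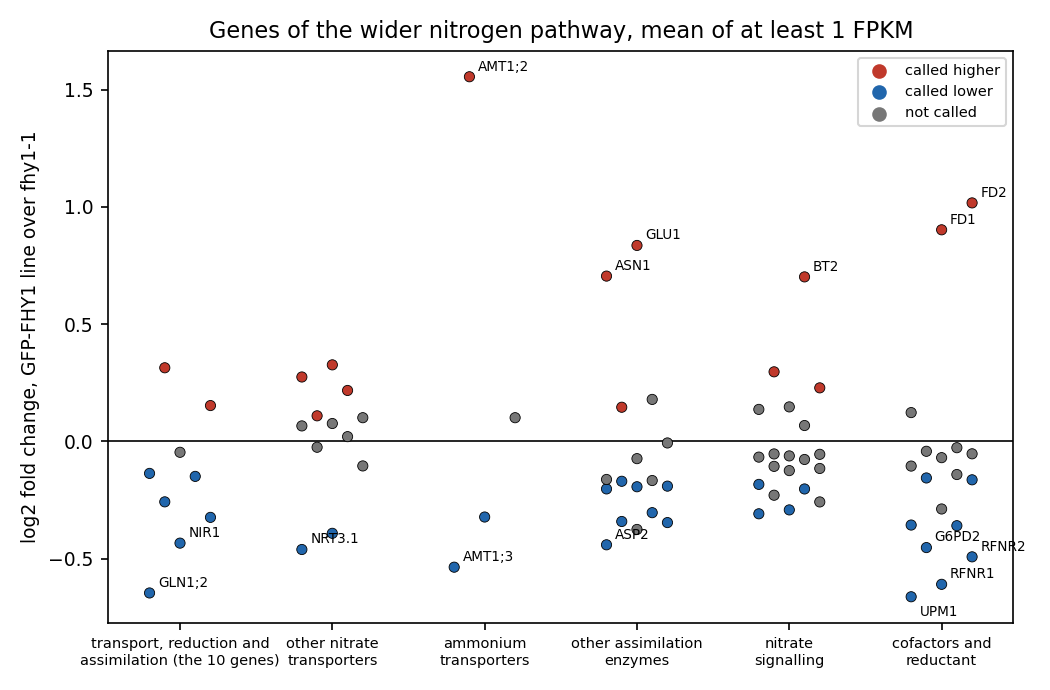
Log2 fold change (GFP-FHY1 line over fhy1-1) of tested genes at a mean of at least 1 FPKM, 1 point per gene, in the 10 nitrogen genes and 5 further lists; colours give the call, and called genes beyond 0.42 are named. The highest points are AMT1;2, FD2, FD1 and GLU1, and the lowest are UPM1, GLN1;2 and RFNR1.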

How the data were processed

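Libraries followed Illumina's mRNA protocol, per the labels. Bowtie and TAIR10 are named in the submitters' processing notes. No source used here states the authors' strand handling, filters or dispersion settings. The deposited table is laid out as a Cuffdiff gene comparison, per the file headers. Its headers name no unit, and its values are read as FPKM, combined by the authors over the libraries of a genotype. The deposited statistic is a score whose sign is opposite to that of the fold change. From it, normal tails (two-sided) gave the deposited p-value to within 2.75e-06, and Benjamini-Hochberg adjustment of those the deposited q-value to within 1.82e-06. The smallest deposited p above 0, from the authors' test, was 2.22e-16, so a q listed as 0 stands for a value too small to be given.

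Log2 fold changes were recomputed from FPKM. The implied error is the fold change divided by the statistic. Retests used a two-sided normal test with Benjamini-Hochberg adjustment over all tested genes, and were tested on simulated data. Coordinates are those of the table, written from 1. Sequences were read from RefSeq TAIR10.1, where 96.3% of 26687 coding spans lay inside the locus of the table, and aligned with MAFFT 7.526. Other tools were Python 3.11.15, numpy 2.4.6, pandas 2.3.3, scipy 1.17.1 and matplotlib 3.10.9.

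The 10 genes and the lists were chosen with earlier results of these data known, so no list test was made. The named genes are FHY1, the 13 root markers, the called shoot markers, the 10 genes and listed relatives of the families of the 10. Up to 4 called genes per further list are also named, those with the largest change at a mean of at least 1 FPKM. Other names were chosen after their values were seen. These are NLP7, the uncalled signalling genes LBD37 to LBD39 and CIPK23, CNX1 to CNX3, the smaller changes given without values, and those so marked in the text. Of the 10 genes, none overlaps another locus in the table. Whether the 3 libraries of a genotype came from separate cultures is stated only as biological replication.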

Additional observations from a re-analysis of the deposited data

How the results depend on the processing

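Against 2 genes called higher and 7 lower, a 2-fold minimum left 0 and 0. Bonferroni adjustment left 1 and 5, where it called 5.3% of all tested genes higher and 5.26% lower. Pseudocounts of 1 plus a minimum change of 0.58 left 0 and 1, where 3.5% and 1.07% of all tested genes passed. Adding replicate spreads of 10% and 20% left 0 and 2, then 0 and 0. Restricted to a mean of at least 100 FPKM, chosen after seeing the data, the counts were 0 and 6. At that level 21.1% of tested genes were called higher and 57.7% lower. With q below 0.01 the counts were 2 and 6, against 8.23% and 9.81% of all tested genes. Centring also gave 2 and 6, against 12% and 9.25%. The 6 lower genes all had a mean of at least 100 FPKM, where centring called 26.2% of tested genes higher and 47.8% lower. A minimum of 1 FPKM in either genotype gave 2 and 8, against 12.4% and 16.6%, since NIA2 was then called lower. Stricter rules and wider errors lower such counts by construction. Centring turned the uncalled NIA2 from -0.05 to 0.00202 and ended the call of NRT2.1. All genes but NIA2 kept their direction under centring, the only alternative that could turn one. The median of -0.20 became -0.16 with centring and -0.20 with the pseudocount. With GLN2 in the sum, the share of GLN1;2 was 72.4% in the mutant and 63.1% in the transgenic line. No paired analysis was possible because each genotype has a single value in the table. Leaving out a library was impossible for that reason too. FPKM does not retain depth, so its effect on precision is unknown.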

Other observations

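Sulfate reduction, like nitrite reduction, uses sirohaem and ferredoxin. Lists of oxidative pentose phosphate genes, ferredoxins with their reductases and sulfate reduction genes were drawn up after the data were seen. They are given as values. Beside their counts, 12.9% of all tested genes were called lower and 9.92% higher, and 57.7% and 21.1% of those at a mean of at least 100 FPKM. Of 10 oxidative pentose phosphate genes, the authors' deposited table has 8 lower and 1 higher, the median log2 fold change being -0.25. The exception was G6PD1, a plastid glucose-6-phosphate dehydrogenase, which rose 2.09-fold, from 8.12 to 16.98 FPKM, while G6PD2 fell. With a replicate spread of 10% added, 1 of the 10 remained called higher and 2 lower. By that rule 4.98% of all tested genes were higher and 2.5% lower. The leaf ferredoxin-NADP reductase genes LFNR1 and LFNR2 rose 1.42-fold and 1.84-fold, against the decrease of RFNR1 and RFNR2; the locus of LFNR1 overlaps another gene.

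Of 10 sulfate reduction genes, the authors' deposited table has 6 lower and 3 higher (median -0.18). All 3 adenylylsulfate reductase genes fell: APR3 1.86-fold, from 59.7 to 32.2 FPKM, and APR1 and APR2 1.31-fold each. The loci of APR2, APR3 and OASB, a plastid cysteine synthase, overlap other genes. SIR, the sulfite reductase, which is related to nitrite reductase, fell 1.13-fold, from 105.2 to 93.0 FPKM. With a replicate spread of 10% added, only APR1, APR2, APR3 and OASB of the 10 remained called, all of them lower.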
